A study of Mus musculus with 6 samples.

Results

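The genes described are 10 of the 24982 rows of the count matrix: the receptor genes Igf1r and Insr, the receptor substrate genes Irs1 and Irs2, and the binding protein genes Igfbp2, Igfbp3, Igfbp4, Igfbp5, Igfbp6 and Igfbp7. They were taken by symbol, each symbol had 1 row, and 9 of the 10 passed the filter on low counts. Igfbp6 did not. Poly(A) RNA came from keratinocytes of mouse dorsal skin, sorted for the tdTomato label and for Itga6 (CD49f). All animals carried the allele Lgr6-EGFP-Ires-CreERT2 together with the reporter R26loxP-stop-loxP-tdTom. The Lgr6 locus drives GFP and a tamoxifen-dependent Cre, so that tdTomato marks cells that expressed Lgr6 at the time of tamoxifen and the cells derived from them. Every animal received 20 μg of tamoxifen on postnatal day 42, and cells were taken 4 weeks after surgery. The denervated group is 3 libraries from the left side of the back, where the dorsal cutaneous nerves had been removed. The labels give no age at surgery. The normal group is 3 libraries from the right side of the same animals, numbered 890, 892 and 899, where the nerves were left in place. No sham surgery is described for the right side, so loss of the nerves, the operation itself and the side of the body cannot be told apart.

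Insulin-like growth factors reach cells through the receptor tyrosine kinase Igf1r, and insulin through its close relative Insr. Both receptors phosphorylate the docking proteins Irs1 and Irs2, which recruit PI3-kinase and so activate AKT and TOR and keep FOXO transcription factors out of the nucleus. The IGF binding proteins are secreted. They hold the ligands away from the receptor, carry them, or release them when proteases cut the binding protein. In skin, IGF-I is made mainly by cells of the dermis, and the receptor is carried by the keratinocytes of the epidermis and hair follicle.

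Libraries held between 9610071 and 14021730 counts on the denervated side and between 13801154 and 26167593 on the normal side. Lgr6 lay between 78.7 and 108 CPM in denervated libraries and between 87.7 and 105 CPM in normal libraries. Krt5, a keratin of basal keratinocytes, lay between 17657 and 21767 CPM in denervated and between 18782 and 20116 CPM in normal libraries. For Krt14 the ranges were 11855 to 15446 CPM and 12406 to 12691 CPM. Itga6, used for the sort, lay between 1581 and 1651 CPM in denervated and between 1407 and 1442 CPM in normal libraries. Its sides did not overlap (log2 fold change 0.19 ± 0.09 SE, adjusted p = 0.266, edgeR). CPM here are counts scaled to library size with TMM factors. In a principal component analysis of log2 CPM, the first component (36.5% of the variance) placed the denervated library of animal 890 at −37.6 and the nearest other one, from the normal side of that animal, at −9.73. Values of the tested members are therefore also given without animal 890. In these bulk libraries fewer cells of a type and less RNA per cell cannot be told apart.

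Levels spanned a wider range between the genes than between the sides for any of them, and their promoters differed in base composition. Printed stretches of promoter sequence show this, credited to RefSeq (GRCm38.p6, the assembly called mm10). The table used here matched 9 of the 10 symbols, all but Insr. Starts here are RefSeq's. They equal the outer end of the GENCODE gene for Igfbp3 and Igfbp4 and lie upstream of it by 471 bases for Irs2, 570 for Igf1r, 176 for Igfbp6 and 23 for Irs1 and for Igfbp2. For Igfbp7 the start lies 4 bases upstream and for Igfbp5 19 bases downstream. Igfbp3 had the highest level of the 10 genes and Igfbp6 the lowest on the normal side, so the 250 bases before their starts are printed, with each CpG dinucleotide in capitals.
Igfbp3 (chr11:7213924-7214173, minus strand): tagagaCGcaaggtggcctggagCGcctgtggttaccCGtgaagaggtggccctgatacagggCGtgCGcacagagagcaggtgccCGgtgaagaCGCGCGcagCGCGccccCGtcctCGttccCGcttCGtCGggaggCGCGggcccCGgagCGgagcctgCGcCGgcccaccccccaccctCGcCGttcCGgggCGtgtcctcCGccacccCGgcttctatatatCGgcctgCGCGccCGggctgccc
Igfbp6 (chr15:102143936-102144185, plus strand): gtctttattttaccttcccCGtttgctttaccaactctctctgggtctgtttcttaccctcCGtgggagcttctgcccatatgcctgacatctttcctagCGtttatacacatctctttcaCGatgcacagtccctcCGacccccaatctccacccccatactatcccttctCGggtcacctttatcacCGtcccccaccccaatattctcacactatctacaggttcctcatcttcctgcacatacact
The Igfbp3 stretch held 32 CpG and the Igfbp6 stretch 7. The median over 32851 promoter windows of that length was 6 CpG, and 95.4% of the windows held fewer than Igfbp3, against 53.7% for Igfbp6.

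Irs1 and Irs2 code for related docking proteins, and their promoters share a run of bases. The stretches around it are printed with the shared letters in capitals.
Irs1 (chr1:82291516-82291586, minus strand): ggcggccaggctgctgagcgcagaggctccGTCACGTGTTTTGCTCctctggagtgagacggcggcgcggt
Irs2 (chr8:11008932-11009005, minus strand): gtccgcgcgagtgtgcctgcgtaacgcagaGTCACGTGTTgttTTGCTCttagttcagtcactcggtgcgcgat
The shared run of 10 bases begins 117 bases before the RefSeq start of Irs1 and 46 bases before that of Irs2. It was followed by a shared run of 6 bases, at once in Irs1 and after 3 other bases in Irs2. That shorter run, TTGCTC, was the longest match in a search only just downstream of the first. On either strand, 4364 of the 32851 windows held it. The run of 10 bases was picked as the longest that the 2 windows share, and longest runs of other pairs of windows were not examined. On either strand it was found in 23 of the 32851 windows. It contains CACGTG, an E-box, which 6.02% of windows held and which 3 of the 9 promoters held, those of Irs1, Irs2 and Igfbp2. TGTTTTG, read on both strands, is a core of the insulin response sequences through which FOXO factors act. It overlaps the end of the E-box at 1 of its 2 matches in Irs1, begins after the E-box at its single match in Irs2, was in no other of the 9 promoters and was held by 5.56% of windows. GTAAACA, a FOXO motif, and TGANTCA, the AP-1 motif, were in none of the 9 promoters within this window, against 3.17% and 6.75% of all windows on both strands. TATAAA was in the promoter of Igfbp4 on the strand of the gene and in that of Igfbp6 on the other strand, against 12.4% of windows on both strands. TATATA was in that of Igfbp3, against 5.25%. These motifs were chosen after the sequences had been seen, and a match of letters is no evidence of binding.

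Levels of different genes are compared in TPM, which scale reads to gene length as well as to library size. Igfbp3 (chr11:7206086-7213923, minus strand, GENCODE on mm10, as for all positions of genes), the main carrier of IGFs in blood plasma, was the most abundant of the 10 transcripts in each library. Its level was 1232, 1292 and 1651 TPM in the denervated libraries of animals 890, 892 and 899, against 1366, 1031 and 1278 TPM in the normal libraries, in the same order. The sides overlapped. By mean TPM it ranked at 123 of 24972 genes on the denervated side and at 134 on the normal side. It made up 88.9% ± 2.75 of the summed TPM of the 6 binding proteins in denervated libraries and 88.4% ± 1.73 in normal libraries (SD, n = 3 each). Per length, Igfbp3 mRNA stood at 58.0 ± 4.69 times the level of Igf1r mRNA in denervated libraries and at 58.2 ± 6.30 times in normal libraries (SD, n = 3 each).

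Irs2 and Igfbp7 came next in the order. Irs2 (chr8:10984681-11008458, minus strand) averaged 146 ± 19.9 TPM in denervated libraries and 131 ± 23.3 TPM in normal libraries (SD, n = 3 each). Igfbp7 (chr5:77349240-77408041, minus strand), a secreted protein of the vessel wall and the matrix that binds IGFs only weakly, averaged 119 ± 20.7 TPM in denervated and 111 ± 24.0 TPM in normal libraries (SD, n = 3 each). These neighbours overlapped on both sides, so their order is not resolved. Igfbp4 (chr11:99041244-99054392, plus strand), an inhibitory binding protein that the protease PAPP-A cuts, averaged 44.7 ± 14.5 TPM in denervated libraries and 41.7 ± 8.86 TPM in normal libraries (SD, n = 3 each). It overlapped Igf1r on the denervated side and lay above it on the normal side.

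Igf1r (chr7:67952827-68233668, plus strand) averaged 24.2 ± 5.52 TPM in denervated and 21.0 ± 1.19 TPM in normal libraries, and Insr (chr8:3122061-3279617, minus strand) averaged 12.8 ± 2.06 TPM in denervated and 14.3 ± 2.12 TPM in normal libraries (SD, n = 3 each). Irs1 (chr1:82233101-82291416, minus strand) averaged 12.8 ± 2.53 TPM in denervated and 15.6 ± 3.22 TPM in normal libraries (SD, n = 3 each) and overlapped Insr on both sides. Igfbp2 (chr1:72824503-72852474, plus strand), whose protein binds IGF-II with preference and carries an integrin-binding sequence, averaged 4.35 ± 0.501 TPM in denervated and 6.82 ± 1.44 TPM in normal libraries (SD, n = 3 each). The lowest were Igfbp5 (chr1:72857932-72874884, minus strand), a matrix-binding member that lies next to Igfbp2, and Igfbp6 (chr15:102144362-102149511, plus strand), which prefers IGF-II. Neither exceeded 0.943 TPM in any library, and they overlapped each other on both sides.

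**Figure D1:**
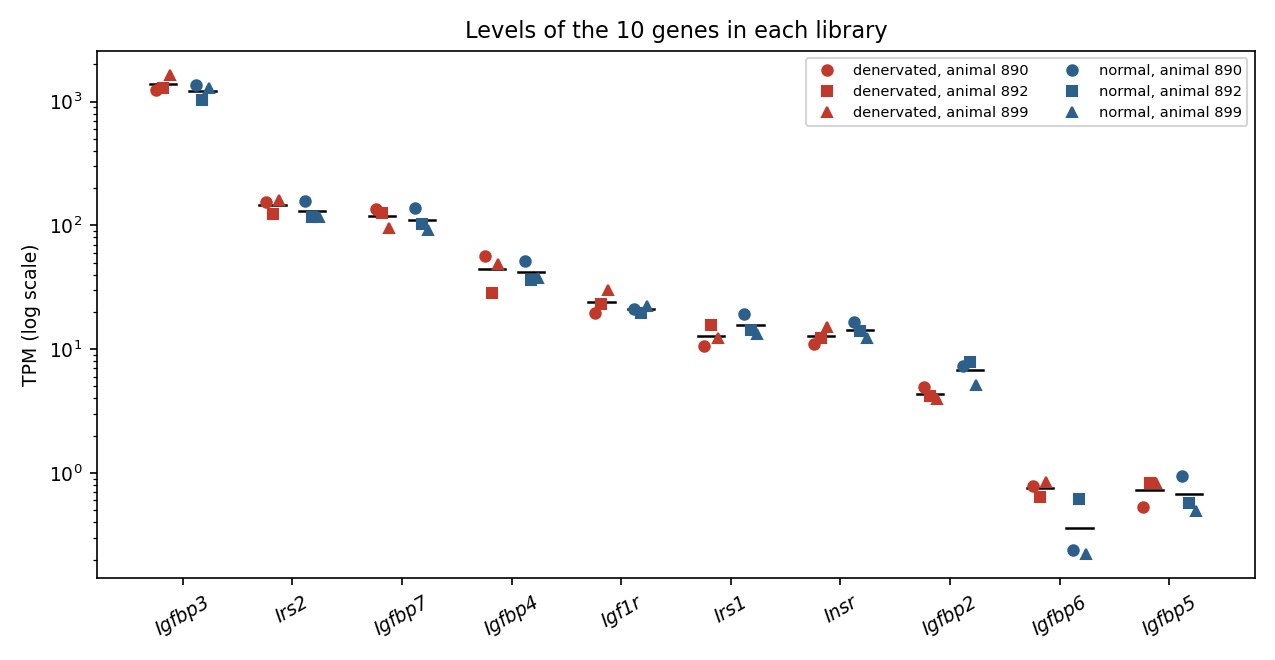
Level of each of the 10 genes in TPM on a log scale, with the 3 denervated libraries (red) left of the 3 normal libraries (blue), marker shapes for the animals and black bars for group means. Igfbp3 stands at 1031 TPM or more in each library, Igfbp5 and Igfbp6 below 1 TPM, and the sides of each gene lie close together beside these gaps.

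The 9 promoters ran in a similar order to the levels at the low end. Igfbp5 and Igfbp6 had the fewest CpG, 10 and 7, and Igfbp2 came next with 14. Igfbp4 had 22, Igfbp7 26, Irs1 28 and Irs2 34. Igf1r had the most, 42, more than 99.1% of all windows, with a level well below that of Igfbp3. This is a description of 9 genes whose levels come from the same 6 libraries.

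**Figure D2:**
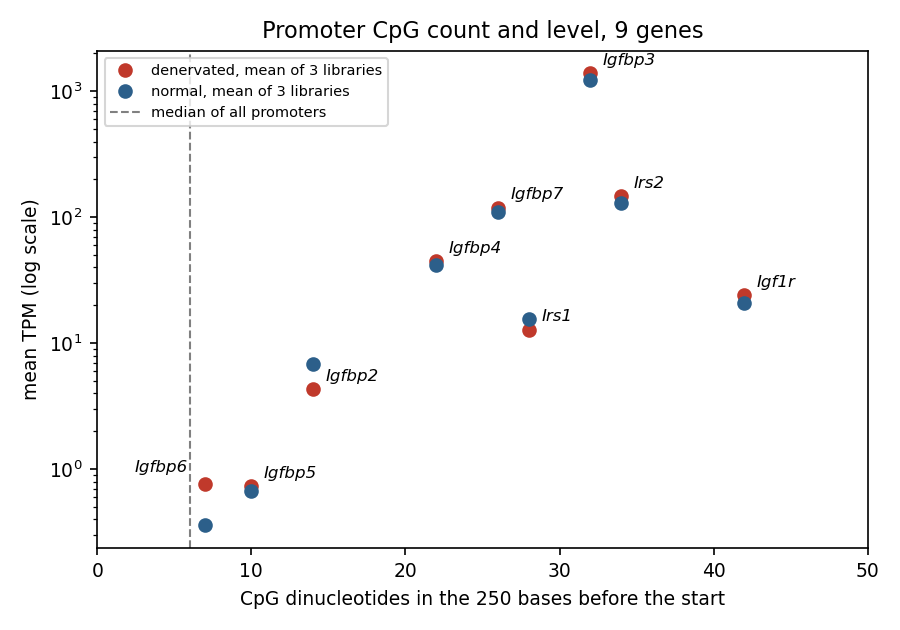
Number of CpG dinucleotides in the 250 bases before the start (horizontal axis) against mean TPM over 3 libraries on a log scale (vertical axis), for the 9 genes with a promoter sequence, with denervated means in red and normal means in blue. The dashed line is the median of all promoters, 6 CpG. The 3 genes with 14 CpG or fewer are the 3 with the lowest levels, and Igf1r has the most CpG at an intermediate level.

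Denervated and normal skin were compared to ask how the loss of cutaneous nerves bears on these cells. None of the 9 tested genes was called, where 3.46% of all 12310 tested genes were, 2.88% as higher and 0.577% as lower. Calls are adjusted p-values below 0.05 over all tested genes, in edgeR's quasi-likelihood test with the animal as a block. Without the block the test called 0 genes (0.00%), with 12.5% of genes at an unadjusted p below 0.05 (no member), and DESeq2 with the block called 492 genes, none of them a member. Among all tested genes 355 were called higher and 71 lower with TMM factors, and 172 higher and 118 lower with library totals. Of the 9 fitted log2 fold changes 6 were positive, with a median of 0.16 over the 9, beside −0.02 over all tested genes. The same sign in 3 of 3 animals was seen for 4 of the 9, beside 40.7% of all tested genes. The sides overlapped in CPM for each of the 9, whereas 19.0% of all tested genes had sides that did not overlap.

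Igf1r had the smallest p of the members. Its level was 147, 169 and 206 CPM in the denervated libraries of animals 890, 892 and 899, against 146, 143 and 158 CPM in their normal libraries. The denervated libraries of animals 892 and 899 stood above all normal libraries, and that of animal 890 lay among them. The log2 fold change of Igf1r was 0.21 ± 0.08 SE (95% interval 0.03 to 0.39), higher in 3 of 3 animals, with an unadjusted p of 0.0229 and an adjusted p of 0.186 (edgeR). It was the only member with an unadjusted p below 0.05, where 18.2% of all tested genes were. Without animal 890 the value was 0.31, with an adjusted p of 0.0367, and without animal 899 it was 0.13. Over the 12 alternative settings its adjusted p ran from 0.0367 to 0.521.

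Insr had no common direction over the animals. It stood at 61.2, 67.1 and 76.6 CPM in denervated libraries of animals 890, 892 and 899 and at 85.2, 76.1 and 65.4 CPM in their normal libraries. It was lower on the denervated side in animals 890 and 892 and higher in animal 899, so the sides overlapped. Its log2 fold change was −0.14 ± 0.11 SE (95% interval −0.38 to 0.09, adjusted p = 0.530, edgeR), and 0.019 without animal 890. Per length, Igf1r mRNA was 1.76, 1.88 and 2.01 times Insr mRNA in the denervated libraries of animals 890, 892 and 899, against 1.28, 1.40 and 1.81 times in the normal libraries. The ratio was higher on the denervated side of each animal, and the ranges of the sides overlapped. That ratio was formed after the values had been seen and has no test.

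**Figure D3:**
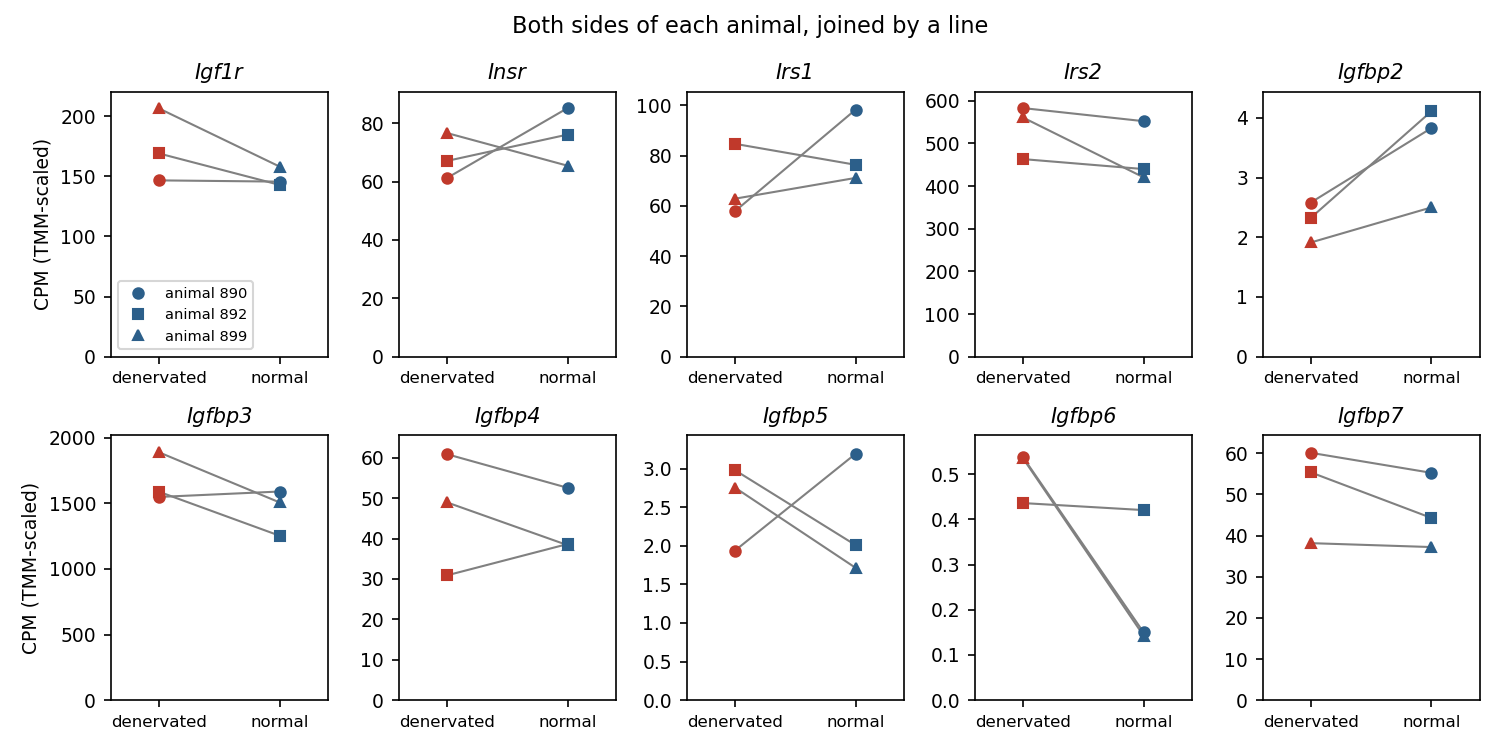
TMM-scaled CPM of each gene on the denervated side (left, red) and the normal side (right, blue), with a line and a marker shape for each of the 3 animals and axes that start at 0. In 3 of 3 animals the denervated end of the line is the higher one for Igf1r, Irs2 and Igfbp7 and the lower one for Igfbp2. It is also the higher one in 3 of 3 animals for Igfbp6, which was not tested and had at most 9 counts. Lines of Insr, Irs1, Igfbp3, Igfbp4 and Igfbp5 slope in both directions.

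The substrate genes had fitted differences of opposite sign. Irs2, which couples the receptors to PI3-kinase and is itself a FOXO target, stood at 583, 463 and 561 CPM in the denervated libraries of animals 890, 892 and 899 and at 552, 440 and 421 CPM in their normal libraries. The denervated value was the higher one in each animal, by 0.08, 0.07 and 0.42 on the log2 scale, and the sides overlapped. Its log2 fold change was 0.19 ± 0.09 SE (95% interval −0.00041 to 0.38, adjusted p = 0.275, edgeR). It was 0.24 without animal 890 and 0.08 without animal 899 (adjusted p = 0.657). Irs1 stood at 57.9, 84.7 and 62.9 CPM in denervated libraries and at 98.3, 76.4 and 71.2 CPM in normal libraries, in the same order of animals. The low denervated value and the high normal value of animal 890 set its range. Its log2 fold change was −0.26 ± 0.13 SE (95% interval −0.53 to 0.02, adjusted p = 0.316, edgeR). Without animal 890 it was −0.01, and without animal 892 −0.46 with an adjusted p of 0.0392. The difference between the changes of Irs1 and Irs2 was not tested.

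Per length, Irs2 mRNA was 14.7, 7.96 and 12.9 times Irs1 mRNA in the denervated libraries of animals 890, 892 and 899 and 8.17, 8.28 and 8.77 times in the normal libraries. The denervated library of animal 892 lay below all 3 normal libraries and the other denervated libraries above them. Antisense transcripts are annotated across 30.9% of the exon bases of Irs1 and 2.56% of those of Irs2, and 7.03% of those of Igfbp7 are shared with Polr2b on the other strand. The strand setting of the counting is not given in the sources used here, so reads from these bases cannot be assigned to a strand.

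Igfbp3 had the smallest p of the 5 tested binding proteins and was not called. It stood at 1549, 1589 and 1890 CPM in the denervated libraries of animals 890, 892 and 899 and at 1590, 1254 and 1507 CPM in their normal libraries. Animal 890 had nearly equal values, and the other 2 animals had more on the denervated side. Its log2 fold change was 0.21 ± 0.10 SE (95% interval −0.0028 to 0.42, adjusted p = 0.280, edgeR), with 0.33 when animal 890 was left out (adjusted p = 0.222) and 0.15 when animal 899 was (adjusted p = 0.367). In the authors' deposited table its log2 fold change was 0.21 with an adjusted p of 0.137.

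Igfbp2 had the largest fitted difference of the 9 and a low level. Its counts were 24, 32 and 25 in the denervated libraries of animals 890, 892 and 899 and 102, 88 and 35 in the deeper normal libraries. These were 2.58, 2.33 and 1.91 CPM, against 3.83, 4.11 and 2.50 CPM. The denervated value was the lower one in 3 of 3 animals, but the normal library of animal 899 lay below the denervated library of animal 890. With edgeR the log2 fold change was −0.61 ± 0.29 SE (95% interval −1.23 to 0.02, adjusted p = 0.290), and −0.63 without animal 890. At these counts the interval is wide, and a fitted level of 0.657 times normal was not called.

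Igfbp4 stood at 60.9, 30.9 and 49.0 CPM in the denervated libraries of animals 890, 892 and 899 and at 52.6, 38.6 and 38.4 CPM in their normal libraries. Its log2 fold change was 0.08 ± 0.12 SE (95% interval −0.17 to 0.34, adjusted p = 0.757, edgeR). It was 0.02 without animal 890, 0.30 without animal 892 and −0.045 without animal 899. Animals differed more than sides did, and only animal 892 had the lower value on the denervated side.

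Igfbp7 differed between the sides by 0.12, 0.32 and 0.04 on the log2 scale in animals 890, 892 and 899. It stood at 60.1, 55.4 and 38.2 CPM in denervated libraries and at 55.3, 44.3 and 37.2 CPM in normal libraries of animals 890, 892 and 899. The denervated value was the higher one each time, animal 899 was lowest on both sides, and the sides overlapped. Fitted over the animals the log2 fold change was 0.16 ± 0.09 SE (95% interval −0.03 to 0.36, adjusted p = 0.369, edgeR). It was 0.19 without animal 890 and 0.10 without animal 892 (adjusted p = 0.879).

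Igfbp5 had 18, 41 and 36 counts in denervated libraries and 85, 43 and 24 counts in normal libraries of animals 890, 892 and 899, or 1.94, 2.98 and 2.75 CPM against 3.19, 2.01 and 1.71 CPM. Animal 890 went one way and the other animals the opposite way. In edgeR's test its log2 fold change was 0.18 ± 0.36 SE (95% interval −0.58 to 0.95, adjusted p = 0.830, edgeR) and 0.62 without animal 890. Its interval spans differences in both directions. Igfbp6 had 5, 6 and 7 counts in denervated and 4, 9 and 2 counts in normal libraries. A floor of 3 counts corresponds to 0.113 to 0.323 CPM, depending on the library and for counting error only, and the normal library of animal 899 lay under it. In the authors' deposited table the log2 fold change of Igfbp6 was 1.24 with a standard error of 1.24. Its libraries did not overlap in CPM, at 0.436 to 0.538 CPM on the denervated side and 0.143 to 0.420 CPM on the normal side.

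**Figure D4:**
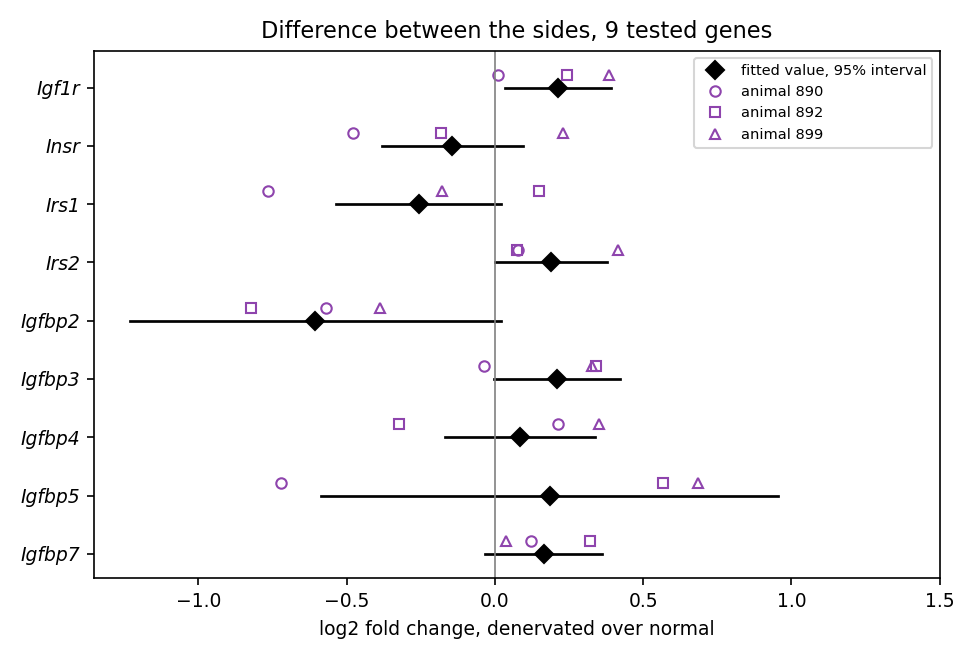
Log2 fold change of denervated over normal for the 9 tested genes, as the fitted value with its 95% interval (black) and the difference in each animal (open purple symbols). The intervals of Igfbp2 and Igfbp5 are the widest, and Igf1r is the only gene whose unadjusted interval, 0.03 to 0.39, leaves out 0.

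The 6 libraries come in pairs from the same animals and differ in depth. Over them, genes whose levels ran most like those of the 2 members with the smallest p were picked by Pearson's r of log2 CPM. For Igf1r these included Dyrk1a (r = 0.990) and Agap1 (r = 0.985). Dyrk1a stood at 156, 166 and 188 CPM in denervated and at 155, 154 and 158 CPM in normal libraries of animals 890, 892 and 899. For Irs2 they were Bms1 (r = 0.987), Mkl1 (r = 0.976) and Kdm6a (r = 0.968). None of the genes named here for likeness was called. Each r is among the highest of a search over the tested genes with a mean of at least 10 CPM. Over 6 libraries such a search itself favours high values, and none of them was tested.

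Of 9 other genes of ligands, receptors and carriers, 3 passed the filter on low counts and none was called. The IGF-I gene Igf1 had 1 count in the denervated library of animal 899 and 0 in the other 5, and the insulin genes Ins1 and Ins2 had 0 counts in each library. Each was therefore under the floor of 3 counts. Igf2, the gene of IGF-II, stood at 0.861, 1.24 and 0.612 CPM in the denervated libraries of animals 890, 892 and 899 and at 1.31, 1.45 and 1.50 CPM in their normal libraries. These levels rest on 8, 17 and 8 counts in denervated and 35, 31 and 21 counts in normal libraries, in the same order. The sides of Igf2 did not overlap, as for 19.0% of all tested genes. Its log2 fold change of −0.66 ± 0.45 SE did not pass (adjusted p = 0.472, edgeR). It ran from −0.92 without animal 892 to −0.40 without animal 899. Igfals, the acid-labile subunit of the plasma IGF complex, had a log2 fold change of −0.21 ± 0.43 SE (adjusted p = 0.845, edgeR).

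Of 10 genes of proteases that cut binding proteins and of their inhibitors, 5 were tested and none was called. Htra1, a secreted serine protease that cuts Igfbp5, stood at 256, 261 and 259 CPM in denervated and 243, 255 and 242 CPM in normal libraries of animals 890, 892 and 899. The ranges did not overlap, but the log2 fold change was 0.07 ± 0.07 SE (adjusted p = 0.660, edgeR). Plat, the tissue plasminogen activator, had a log2 fold change of −0.22 ± 0.11 SE (adjusted p = 0.302, edgeR), with −0.36 and an adjusted p of 0.0401 without animal 899. It was −0.13 (adjusted p = 0.671) when animal 890 was left out and −0.14 (adjusted p = 0.825) when animal 892 was.

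Of 15 tested adaptors and inhibitors close to the receptors, 1 was called. Socs3, a feedback inhibitor of cytokine receptors that also binds Insr and marks Irs proteins for degradation, fell. It stood at 401, 304 and 469 CPM in the denervated libraries of animals 890, 892 and 899, against 714, 578 and 469 CPM in their normal libraries. Animal 899 had nearly equal values on both sides, so the ranges of the sides came within 1 CPM of each other without overlapping. Socs3 had a log2 fold change of −0.59 ± 0.14 SE (adjusted p = 0.0349, edgeR). The call was lost without the block (adjusted p = 0.219), on leaving out animal 892 (adjusted p = 0.0911) and in DESeq2 (adjusted p = 0.301). It was also lost with estimated counts in edgeR (adjusted p = 0.0552) and in limma on log2 TPM (adjusted p = 0.209 and 0.202). Of the 12 alternative settings, 6 called Socs3. The median over the list was 0.06.

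Of 32 genes of PI3-kinase, AKT and TOR signalling, all of them tested, 1 was called, and the median was −0.01. Ddit4, which restrains TOR through the TSC complex, fell. It stood at 65.1, 50.4 and 54.5 CPM in denervated and at 86.5, 86.5 and 58.4 CPM in normal libraries of animals 890, 892 and 899. The denervated value was the lower one in each animal, but the sides overlapped. Fitted over the animals its log2 fold change was −0.44 ± 0.11 SE (adjusted p = 0.0451, edgeR), and −0.24 without animal 892 (adjusted p = 0.467). Without the block the adjusted p was 0.276. The call was lost with DESeq2 size factors as well (adjusted p = 0.0503). Of the 12 alternative settings, 6 called Ddit4.

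Among 16 FOXO factors and FOXO targets, all of them tested, 2 were called higher and none lower, with a median of −0.03. Of the 16 fitted values 8 were positive. An unadjusted p below 0.05 (edgeR) was seen for 5: the 2 called genes, Ccng2, Cdkn1b and Foxo4. Ccng2 had a log2 fold change of −0.34 ± 0.09 SE and narrowly missed a call (adjusted p = 0.0555, edgeR). Its sides did not overlap. The values were −0.25 for Cdkn1b (adjusted p = 0.192) and −0.20 for Foxo4 (adjusted p = 0.245, edgeR). Trib1, a pseudokinase, stood at 324, 376 and 467 CPM in the denervated libraries of animals 890, 892 and 899, against 222, 259 and 326 CPM in their normal libraries. Its log2 difference was 0.54, 0.54 and 0.52 in these animals, so the sides overlapped only because the animals differed. The fitted value of Trib1 was 0.53 ± 0.07 SE (adjusted p = 0.00444 with the block and 0.213 without it, edgeR). Gabarapl1, which acts in autophagosome formation, stood at 84.7, 87.8 and 94.2 CPM in denervated and at 59.9, 69.1 and 65.2 CPM in normal libraries. All denervated libraries lay above all normal ones. Gabarapl1 had a log2 fold change of 0.46 ± 0.08 SE (adjusted p = 0.0103 with the block and 0.146 without it, edgeR). Trib1 and Gabarapl1 were also called without each animal in turn. Over the 5 lists, 4 of 71 tested genes were called, 2 higher and 2 lower, beside 3.46% of all tested genes, and their median of −0.0042 lay beside −0.02 over all tested genes. The 2 genes called higher among the 16 of the FOXO list stand beside 2.88% called higher among all tested genes. No list was tested as a set.

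**Figure D5:**
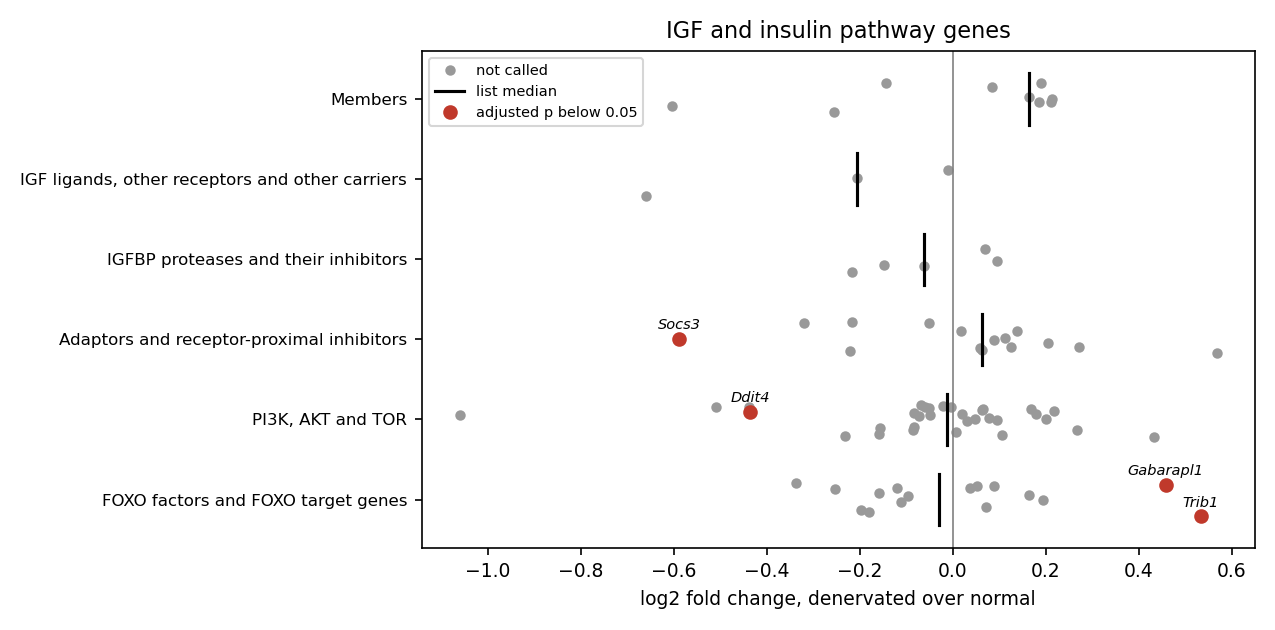
Log2 fold change of denervated over normal for tested genes of the 10 members and of 5 pathway lists, 1 point per gene, with called genes in red and list medians as black bars. The called genes are Socs3 and Ddit4, which fell, and Trib1 and Gabarapl1, which rose, and no member is among them.

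Several binding proteins are also made by cells of the dermis. Defining markers of fibroblasts were near 0: Pdgfra, Lum and Dpt stayed under 1 CPM in each library, Col1a1 did not exceed 1.73 CPM and Col1a2 did not exceed 1.57 CPM. The summed level of 8 fibroblast markers was 90.6 to 158 CPM in denervated and 105 to 129 CPM in normal libraries, of which Thy1 gave 89.1 to 157 CPM and 100.7 to 127 CPM. Of 6 endothelial markers, 5 stayed under 1 CPM in each library, and their sum was 0.861 to 1.31 CPM in denervated and 0.413 to 1.57 CPM in normal libraries. The 6 pericyte and smooth muscle markers summed to 123 to 164 CPM in denervated and to 160 to 168 CPM in normal libraries, mostly Notch3 and Cspg4, with Rgs5, Pdgfrb and Myh11 under 1 CPM in each. The part of such cells in the levels of Igfbp3, Igfbp4 and Igfbp7 was not tested.

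Suprabasal keratinocytes could also enter the gate. The sum of 6 suprabasal markers was 8373 to 10806 CPM in denervated and 10210 to 10553 CPM in normal libraries, with the 2 lowest sums in the denervated libraries of animals 890 and 899. The 8 basal markers summed to 44717 to 50678 CPM in denervated and to 45863 to 46132 CPM in normal libraries. Compared within each of the 3 animals, denervated skin had the lower sum of the bulge, pericyte and melanocyte lists each time, and the higher sum of the T cell and myeloid lists. Krt15 gave most of the bulge sum, at 4413 to 5176 CPM in denervated and 4625 to 5896 CPM in normal libraries. Sox9 of that list was higher on the denervated side of each animal. Of the 8 bulge markers 1 was called, beside 3.46% of all tested genes, so the list did not go in a single direction with its sum. The melanocyte sums of animals 890 and 892 were 1.08 and 1.02 CPM in denervated and 1.09 and 1.07 CPM in normal libraries. Of the 12 marker sums that of 4 T cell markers had ranges that did not overlap, at 3.87 to 4.80 CPM in denervated and 1.69 to 3.86 CPM in normal libraries. The exact two-sided permutation test of these sums did not use the pairing of the sides by animal. For the T cell sum its p was 0.1, the smallest that 3 against 3 unpaired libraries allow, and 0.686 after adjustment over the 12 sums. Their part in the results was not tested.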

How the data were processed

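The members, gene lists and tests were chosen with earlier results of these data known. Per the labels, both sides of the back came from the same mouse, which is why the animal number of the title was used as a block. As a check of that pairing, same-animal libraries deviated together from their group means (r of 0.356, 0.361 and 0.443). Per the submitters' processing notes, STAR 2.6.1a, Salmon 0.11.2 and mm10 were used, with no roles given. For the annotation, the counter and how it used strand, nothing is given in the sources used here. The labels describe a directional library kit. Whole-number counts, not normalised, make up the deposited matrix. Each library's own deposited file has estimated counts, TPM, and gene length and effective length (recorded as a score), and a deposited table holds TPM. The authors' comparison table holds log2 fold changes, p-values, standard errors and test statistics (scores), and mean normalised signal. Per the sample titles, the libraries of a group come from different animals.

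From the counts, edgeR 4.0.16 (R 4.3.3) was run with TMM factors, filterByExpr (minimum count 10, minimum total 15) and glmQLFTest over all 6 libraries, which left 12310 genes, with Benjamini-Hochberg adjustment. It was tested on simulated data. Standard errors were derived from the fold change and F (size divided by the root of F), and 95% intervals use the test's degrees of freedom, unadjusted. Log2 CPM for likeness used a prior count of 2. Alternatives were no block, other scaling and filters, estimated counts rounded to whole numbers, DESeq2 1.42.0, limma 3.58.1 on log2(TPM + 1) and log2(TPM + 0.1), which understate changes of low genes, and each animal left out. Ccng2, Cdkn1b and Foxo4 were named after their values had been seen. Otherwise, named were all members, called list genes (at most 4 per list) or the 2 with the smallest p, and the ligand genes. For the 2 members with the smallest p, the 3 genes with the highest r (mean of at least 10 CPM) were named. A result that falls under this rule is not reported here. Sorting genes were checked. Gene annotation was GENCODE on the mm10 assembly.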

Additional observations from a re-analysis of the deposited data

How the results depend on the processing

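The counts of called genes over the whole table, 355 higher and 71 lower, depended on the settings. Without the replicate block 0 and 0 were called, and limma called 0 higher and 1 lower, Mir1192 (−5.95 on log2(TPM + 1)), named after its values were seen. Library totals gave 172 higher and 118 lower, no filter 692 and 295. The estimated counts gave 46 lower and DESeq2 with the block 43 lower. A threshold of 0.1 gave 603 and 217, and one of 0.01 gave 64 and 2. Leaving out each animal gave 215 to 671 higher and 33 to 305 lower. No member was called as reported; leaving out each animal gave 0 to 1 higher (Igf1r, without animal 890) and 0 to 1 lower (Irs1, without animal 892). No other alternative run called a member. Signs turned only on leaving out an animal: Insr ran from −0.33 (without animal 899) to 0.019 (without animal 890), Igfbp4 from −0.045 (without animal 899) to 0.30 (without animal 892), Igfbp5 from −0.042 (without animal 899; −0.011 without animal 892) to 0.62 (without animal 890), and Igfals from −0.66 (without animal 892) to 0.22 (without animal 890). Of the pathway genes, 2 higher and 2 lower as reported, the fit without the block and limma called 0 and 0, no filter 6 higher and 4 lower, DESeq2 size factors 1 lower, the estimated counts 0 lower and DESeq2 1 lower. Leaving out each animal gave 2 to 7 higher (7 without animal 899) and 0 to 6 lower (0 without animal 892, 6 without animal 899). The causes were not tested. The share of Igfbp3 in the members' TPM, 79.0% on the denervated and 78.1% on the normal side, was the same in the TPM table of the whole series. With raw counts per base of the same effective lengths it was 79.2% and 78.5%, a move of less than its SD. These alternatives share libraries and lengths, so they could hardly differ. Igfbp2, Igfbp5 and Igfbp6 had at most 102 counts in any library, and counting error there is larger than for the other members.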
